A study of Mus musculus with 3 samples.

Results

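Mitochondrial transport genes were examined in RNA from mouse medial prefrontal cortex (mPFC), part of the frontal lobe. Members were taken by gene symbol: all Slc25a genes in the table but 1 that the rule leaves out, the uncoupling protein genes Ucp1 to Ucp3, the pyruvate carrier genes Mpc1 and Mpc2, the porin genes Vdac1 to Vdac3, and genes of the calcium uniporter, Mcu and the Micu genes. This gave 58 of 46073 genes. Of these, 49 carry an Slc25 or Ucp symbol and belong to the carrier family. The other 9 encode porins, the pyruvate carrier and the calcium uniporter, which are separate protein families, so the set is called mitochondrial transport genes here.

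The mice were naïve C57BL/6 animals aged 3 months, with no treatment and no other genotype named. The series holds 3 samples of this tissue, which are DNA pulled down with a methylcytosine antibody, input DNA and RNA. The RNA sample is the one described here. The design text gives 3 replicates for RNA-seq, but the table holds 1 value per gene, so values below come without an error, and ratios between genes without a p-value or a check over replicates. Levels are in FPKM, which divides a gene's fragments by the length of its transcript and by the mapped fragments of the library, so genes can be set side by side within the sample. The depth of sequencing is unknown.

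Carriers of the Slc25 family sit in the inner mitochondrial membrane and move nucleotides, phosphate, amino acids, organic acids and cofactors between the matrix and the space outside it. Porins let small molecules through the outer membrane, and the uniporter lets calcium into the matrix. In brain these proteins link ATP supply, the handling of glutamate and calcium signals at synapses.

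Most of the transport genes were detected in the mPFC, from Slc25a22, a glutamate carrier, at 349 FPKM down to Ucp1, the brown fat uncoupling protein, at 0.0189 FPKM. At 1 FPKM or more, the floor used for a detected gene, stood 47 of the 58 genes, beside 31.5% of all genes in the table and 58.6% of protein-coding genes. None was listed at 0. Of the 49 genes with an Slc25 or Ucp symbol, 38 (77.6%) were detected, and all 11 genes under the floor are among these 49. The 58.6% of protein-coding genes is also the share to set beside the detection counts of smaller groups below. At 10 FPKM or more stood 30 genes (14.6% of all genes, 29.1% of protein-coding genes), and 7 were at 100 FPKM or more (1.57% and 2.82%). The median of the 58 genes was 11.1 FPKM, against 2.59 FPKM for 20635 protein-coding genes and 0.0414 FPKM for all genes. Slc genes outside family 25, which mostly encode transporters of the cell surface and of vesicles, had a median of 2.14 FPKM, with 195 of 324 (60.2%) detected. Among detected genes alone the medians were closer, at 16.5 FPKM for the transport genes, 9.86 FPKM for protein-coding genes and 7.79 FPKM for the other Slc genes. No test was made of these differences, since genes are not replicates.

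**Figure D1:**
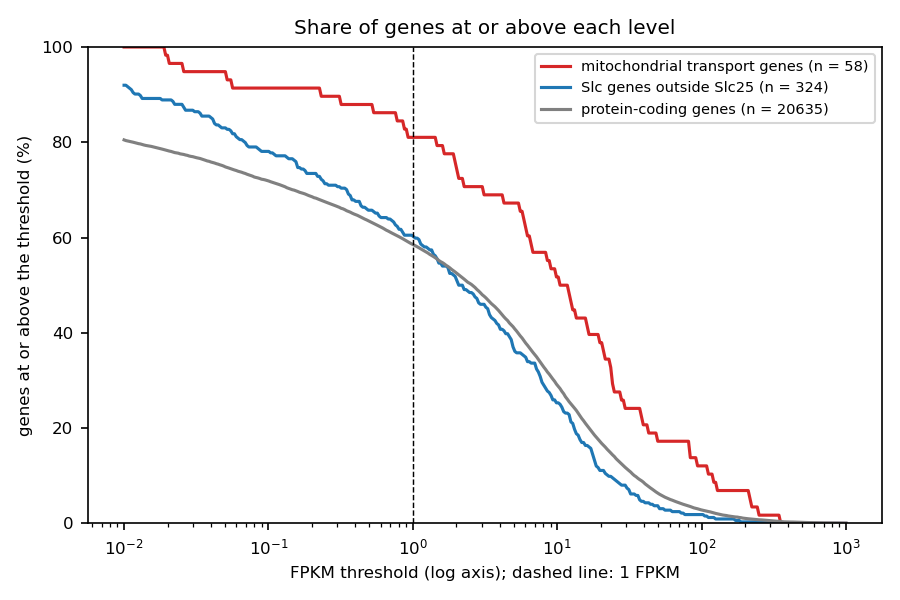
Share of genes (%) at or above each FPKM threshold (log axis) for the 58 mitochondrial transport genes, 324 Slc genes outside family 25 and 20635 protein-coding genes. At the dashed line of 1 FPKM the transport genes are at 81% and the other Slc genes at 60.2%.

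The signal was spread unevenly over the 58 genes. How uneven other gene lists are was not computed. The highest of the 58 was Slc25a22, followed by Slc25a4, Vdac1 and Slc25a3, and these 4 genes made up 46.8% of the summed FPKM of the set. The 10 highest made up 74.5%. Set against protein-coding genes, 10 of the 58 lay at or above the 95th percentile and 41 at or above the 50th percentile. By role, the ADP/ATP and phosphate carriers held 25.1% of the sum, the aspartate, glutamate and 2-oxoglutarate carriers 24.8%, and the porins 16.7%.

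**Figure D2:**
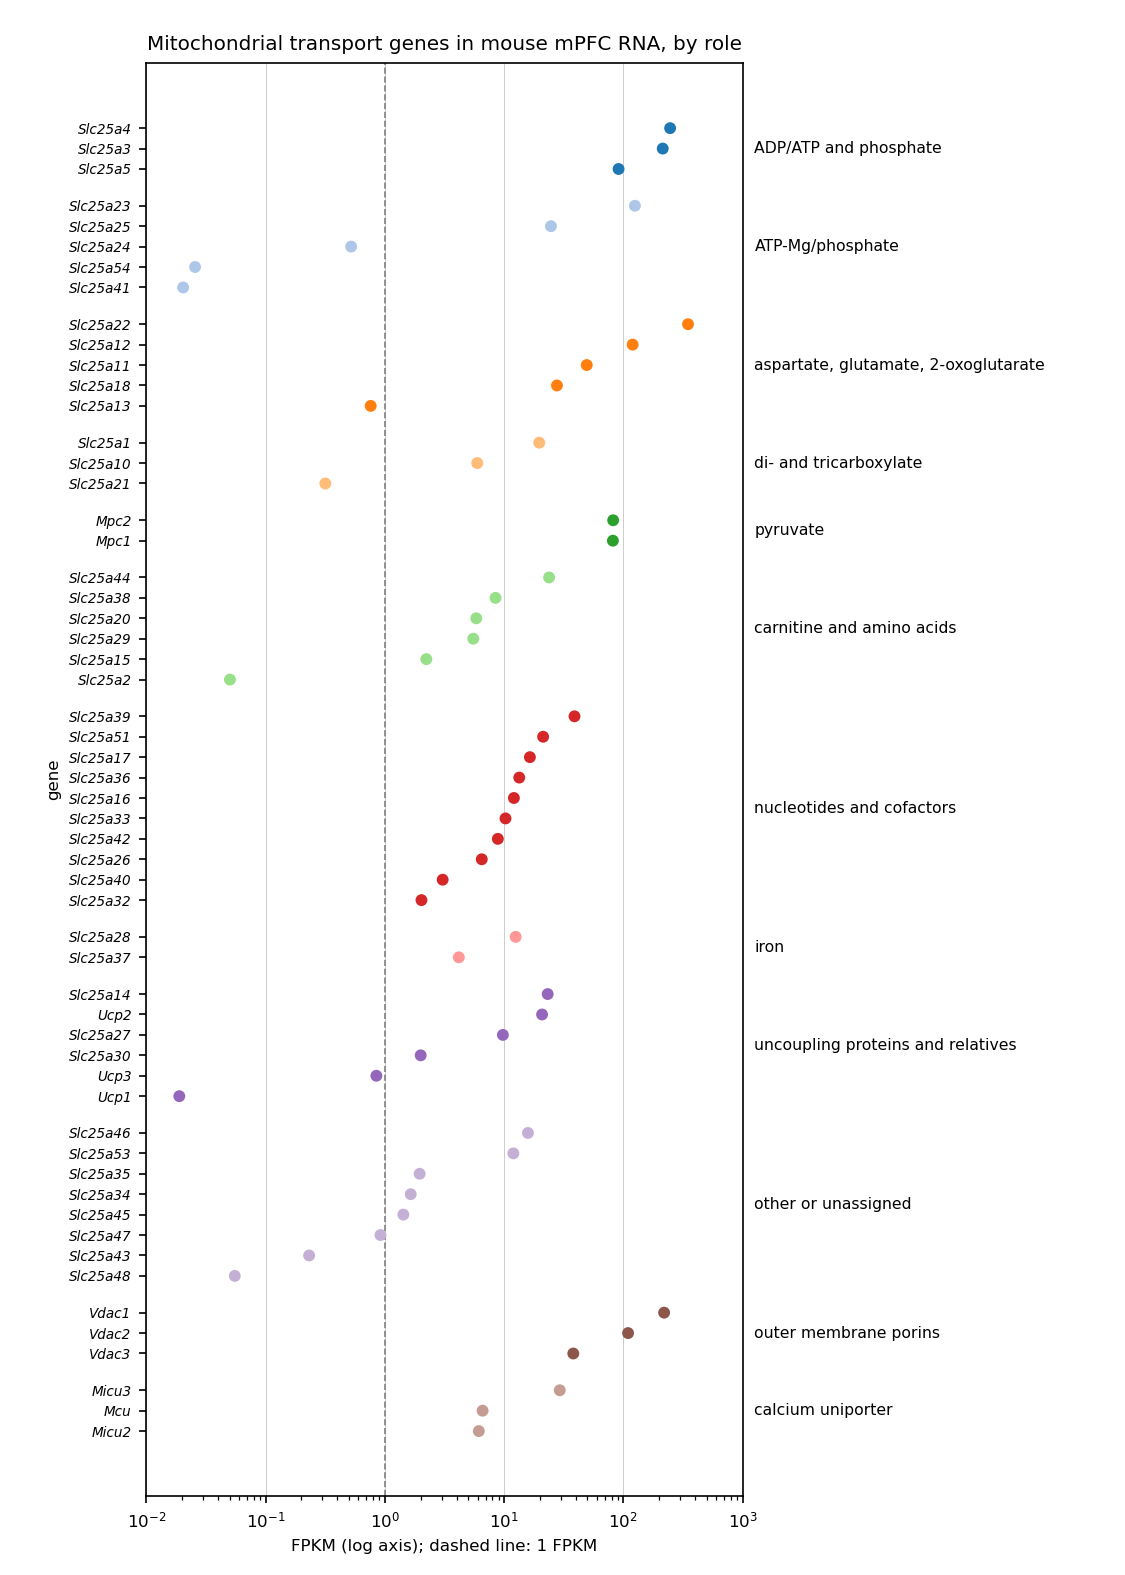
FPKM (log axis) of 56 of the 58 genes in the mPFC RNA sample, grouped into 12 roles, 1 point per gene. Slc25a22 lies furthest right at 349 FPKM, Ucp1 furthest left at 0.0189 FPKM, and 11 genes lie left of the dashed line at 1 FPKM.

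Carriers that exchange ADP for ATP and bring in phosphate supply the substrates of ATP synthase. The 3 genes of the set with this role were all high. The Slc25a gene that the rule leaves out is not covered by this statement. Slc25a4, the adenine nucleotide translocator typical of heart, muscle and brain (chromosome 8, 46207168 to 46211062, GRCm38.p6), stood at 247 FPKM. Slc25a5, the widely expressed translocator (chromosome X, 36795597 to 36798808), stood at 91.3 FPKM. Slc25a4 was therefore 2.71-fold higher. Slc25a3, the phosphate carrier (chromosome 10, 91116574 to 91124046), stood at 214 FPKM, and Slc25a4 was 1.15 times that. Slc25a5 has the named pseudogene copy Slc25a5-ps, listed at 0.0456 FPKM. The sources used here do not say how reads shared by such copies were assigned.

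Carriers of ATP-Mg exchange it for phosphate and so set the nucleotide content of the matrix. The genes of these carriers and their relatives ran from among the highest of the set to among the lowest. Slc25a23 (chromosome 17, 57043711 to 57059909) was at 125 FPKM and Slc25a25 at 24.8 FPKM. Slc25a24, the form known from proliferating cells, was at 0.523 FPKM. Slc25a23 was 5.06-fold above Slc25a25 and 240-fold above Slc25a24. The related genes Slc25a54 and Slc25a41 were at 0.0257 and 0.0204 FPKM. Of the 5 genes, 2 were detected.

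Carriers of aspartate, glutamate and 2-oxoglutarate feed the malate-aspartate shuttle, which passes electrons from cytosolic NADH into the matrix, and supply glutamate to matrix enzymes. Slc25a22, a carrier that takes glutamate into the matrix (chromosome 7, 141429749 to 141437874), was at 349 FPKM, above 99.6% of protein-coding genes. Its paralog Slc25a18, known from astrocytes, was at 27.8 FPKM, 12.6-fold lower. Slc25a12, the aspartate/glutamate carrier of brain and muscle (chromosome 2, 71274270 to 71367781), was at 120 FPKM. Slc25a13, the liver form of that carrier (chromosome 6, 6041218 to 6217304), was at 0.762 FPKM, so that Slc25a12 was 157-fold higher. Slc25a11, which exchanges 2-oxoglutarate for malate, was at 49.4 FPKM, 2.43-fold below Slc25a12. In bulk tissue, fewer cells of a type and less RNA per cell cannot be told apart, so the ratio of Slc25a22 to Slc25a18 says nothing of neurons and astrocytes by itself.

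The enzymes of the shuttles were also detected. All 6 listed enzymes passed the floor, and their median was 116 FPKM. The cytosolic malate dehydrogenase gene Mdh1 was at 557 FPKM and the matrix form Mdh2 at 287 FPKM. The aspartate aminotransferase genes Got1 and Got2 were at 175 and 56.4 FPKM. The glycerol phosphate dehydrogenases, which form a shuttle that needs no carrier, were lower, with Gpd1 at 33.5 FPKM and Gpd2 at 18.6 FPKM.

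Both subunits of the mitochondrial pyruvate carrier stood at nearly the same level. Mpc1 (chromosome 17, 8283787 to 8297667) was at 81.9 FPKM and Mpc2 (chromosome 1, 165461260 to 165481218) at 82.3 FPKM, a ratio of 1.01. The carrier is a complex of both proteins. Mpc1 overlaps the long non-coding RNA gene 4930506C21Rik, listed at 32.3 FPKM, over 4302 bases, and no source says whether strand was used in counting, so reads of the shared stretch cannot be told apart. All 5 pyruvate dehydrogenase genes, which use the imported pyruvate, were detected, from Pdhx at 16.5 FPKM to Pdha1 at 66.4 FPKM.

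Carriers of other organic acids were lower. Slc25a1, the citrate carrier that exports carbon for lipid synthesis, was at 19.8 FPKM. Slc25a10, the dicarboxylate carrier, was at 5.96 FPKM, 8.28-fold below Slc25a11. Slc25a21, which carries 2-oxoadipate, was at 0.317 FPKM, under the floor.

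Among carriers of carnitine and amino acids, 5 of 6 passed the floor, and the median was 5.69 FPKM. Slc25a44, which carries branched-chain amino acids, was highest at 23.9 FPKM. Slc25a38, which brings in glycine for heme synthesis, was at 8.48 FPKM, and Slc25a29, a carrier of basic amino acids, at 5.52 FPKM. Slc25a20, which brings fatty acids bound to carnitine into the matrix, was at 5.85 FPKM. The listed carnitine enzymes ranged from Cpt1b, the muscle form of the outer membrane palmitoyltransferase, at 0.688 FPKM to Crat, the acetyltransferase, at 27.2 FPKM. Cpt1c, a relative known from brain, was at 24.3 FPKM, 4.66-fold above Cpt1a, the liver form of that outer membrane enzyme. The level of Cpt1c says nothing of fatty acid entry into the matrix.

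The ornithine carriers, which serve the urea cycle in liver, were low. Slc25a15 was at 2.23 FPKM and Slc25a2 at 0.0503 FPKM. Slc25a2 lies inside longer annotated genes, Gm37013 among them, so its low value is uncertain as well. In the list of urea and ornithine enzymes, 4 of 7 were detected, near the 58.6% of protein-coding genes. Otc, Cps1 and Arg1, the enzymes that define the liver cycle, were at 0.0219, 0.0743 and 0.0407 FPKM. Oat, ornithine aminotransferase, was highest at 31.2 FPKM.

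Each of the 11 carriers of nucleotides and cofactors was detected, between 2.03 and 39.0 FPKM. Slc25a39, a glutathione carrier, led at 39.0 FPKM and was 12.8-fold above its paralog Slc25a40 at 3.06 FPKM. The NAD carrier Slc25a51 was at 21.3 FPKM. Slc25a17, which is a carrier of peroxisomes and not of mitochondria, was at 16.5 FPKM. The pyrimidine nucleotide carriers Slc25a36 and Slc25a33 were within 1.30-fold, at 13.4 and 10.3 FPKM. Slc25a16 and Slc25a42, linked to coenzyme A, were within 1.36-fold, at 12.1 and 8.88 FPKM. Slc25a26, which brings in the methyl donor S-adenosylmethionine, was at 6.51 FPKM, and the folate and FAD carrier Slc25a32 was the lowest of the group at 2.03 FPKM.

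The iron carriers, called mitoferrins, were both detected. Slc25a28, the form of most tissues, was at 12.5 FPKM, 3.00-fold above Slc25a37, the form of red cell precursors, at 4.18 FPKM. Red cell genes were present in the sample: all 5 blood markers were detected, from Alas2 at 1.05 FPKM to the globin gene Hbb-bs at 46.4 FPKM. Their part in the level of Slc25a37 was not tested. Of 7 genes of heme and iron-sulfur synthesis all were detected, with the scaffold gene Iscu highest at 49.96 FPKM and Alas2 lowest.

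Uncoupling protein genes and their relatives were detected in 4 of 6 cases, beside 58.6% of protein-coding genes. Slc25a14 and Slc25a27, relatives known from brain, were at 23.2 and 9.79 FPKM. Slc25a30, known from kidney, was at 2.0018 FPKM, 11.6-fold below Slc25a14. Ucp2, which is widely expressed, was at 20.9 FPKM. Ucp3, the muscle form, was at 0.851 FPKM, just under the floor. Ucp1, which makes heat in brown fat, was the lowest of all 58 genes at 0.0189 FPKM. Other genes known from brown fat were not all at that level. Of these, 4 of 5 were detected, beside 58.6% of protein-coding genes, with Dio2 at 7.38 FPKM highest and Elovl3 at 0.00686 FPKM lowest. Whether these genes mark brown fat in this tissue was not tested.

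Of the carriers with another role or with no settled substrate, 5 of 8 passed the floor, beside 58.6% of protein-coding genes. The median of the 8 was 1.54 FPKM, against 2.59 FPKM for protein-coding genes. Slc25a46, an outer membrane protein linked to mitochondrial shape, was highest at 15.9 FPKM. Slc25a53 was listed at 11.98 FPKM, but it overlaps Zcchc18, which was at 120 FPKM, over 6094 bases, so its value is uncertain. Slc25a35 and Slc25a34 were at 1.96 and 1.65 FPKM and Slc25a45 at 1.43 FPKM. Below the floor were Slc25a47, a liver carrier, at 0.920 FPKM, Slc25a43 at 0.232 FPKM and Slc25a48 at 0.0553 FPKM. The carrier-like outer membrane protein genes Mtch1 and Mtch2, which the rule does not take, were at 348 and 44.6 FPKM.

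The porin genes were all high. Vdac1 (chromosome 11, 52360851 to 52389397) was at 220 FPKM, Vdac2 at 110 FPKM and Vdac3 at 38.1 FPKM, with ratios of 2.01 between Vdac1 and Vdac2 and 5.78 between Vdac1 and Vdac3. The pseudogene copy Vdac3-ps1 was listed at 0.0161 FPKM. Among genes whose products bind porins or draw on the ATP that passes through them, the brain hexokinase gene Hk1 was at 84.3 FPKM, 79.8-fold above Hk2. The creatine kinase genes Ckb and Ckmt1 were at 480.5 and 138 FPKM. Tspo, an outer membrane protein, was at 4.34 FPKM.

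Genes of the calcium uniporter and its partners ranged widely in level. Mcu, which forms the pore (chromosome 10, 59446984 to 59617409), was at 6.62 FPKM. Micu3, a calcium-sensing regulator known from brain, was at 29.3 FPKM, 4.44-fold above Mcu. Micu2, another regulator, was at 6.15 FPKM, close to the level of Mcu. Smdt1, which encodes the small subunit that ties the pore to its gatekeepers, was at 107 FPKM, 16.2-fold above Mcu. Mcub, the pore-like subunit that reduces uptake, was at 2.08 FPKM, 3.18-fold below Mcu. The sodium-calcium exchanger gene Slc8b1, on the route out of the matrix, was at 1.88 FPKM.

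Carrier proteins reach the inner membrane through dedicated import machinery. All 11 import genes passed the floor, and their median was 26.5 FPKM. The insertion pore gene Timm22 was at 23.0 FPKM and its chaperone partners Timm9 and Timm10 at 20.5 and 26.5 FPKM. Timm8b was highest at 110 FPKM, and Agk, a subunit of the same insertion complex, was lowest at 9.42 FPKM.

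**Figure D3:**
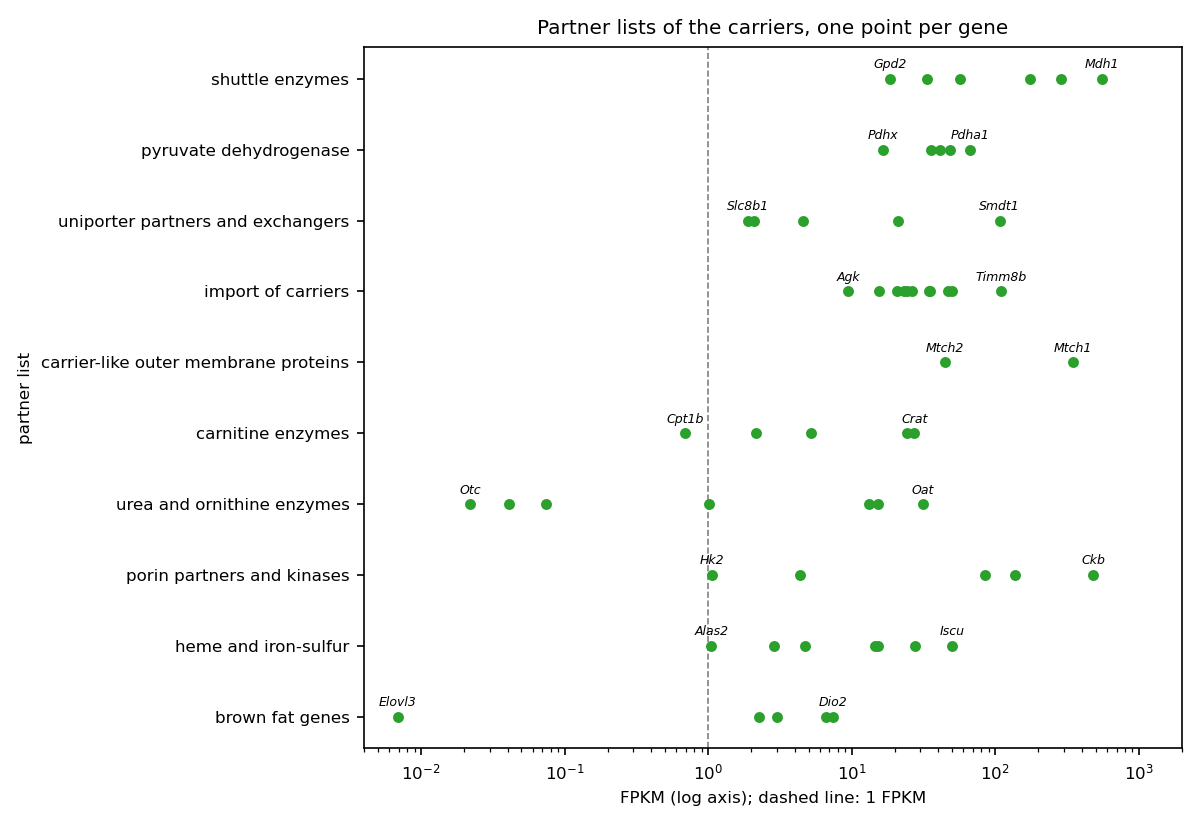
FPKM (log axis) of the genes in 10 lists of partners, 1 point per gene, with the lowest and highest gene of each list named. Mdh1 lies furthest right at 557 FPKM, and the urea and ornithine list has 3 genes left of the dashed line at 1 FPKM.

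Across 24 pairs of related genes, 17 were 2-fold or more apart once 1 was added to each FPKM, a scale that understates differences that involve low genes. In FPKM itself 9 pairs differed 10-fold or more. The pairs furthest apart were Ucp2 over Ucp1 (1101-fold), Slc25a23 over Slc25a24 (240-fold) and Slc25a12 over Slc25a13 (157-fold). In each of these, the lower gene was under 1 FPKM, where the ratio rests on a low value of unknown fragment count. Pairs that lay within 2-fold included Mpc1 and Mpc2, Slc25a33 and Slc25a36, Slc25a16 and Slc25a42, Slc25a35 and Slc25a34, Slc25a45 and Slc25a47, and, at 1.9964-fold on that scale, Vdac1 and Vdac2.

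**Figure D4:**
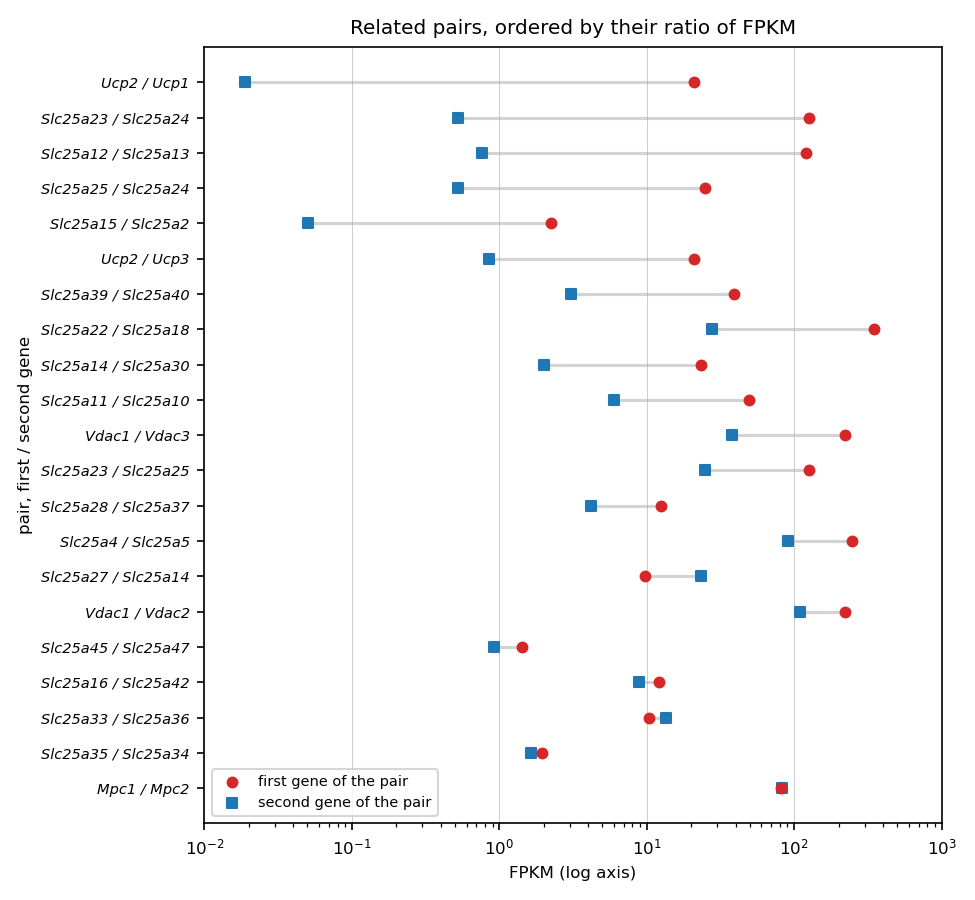
FPKM (log axis) of both genes of 21 of the 24 related pairs, ordered by their ratio. Ucp2 and Ucp1 at the top are furthest apart, and Mpc1 and Mpc2 at the bottom, at 81.9 and 82.3 FPKM, overlie each other.

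Several related genes are chromosomal neighbours, and the lower gene of each pair given here was under 1 FPKM. In RefSeq for GRCm38.p6, 6 pairs of the set lie within 100 kb of each other with no protein-coding gene between them, and 5 of them are given here. Slc25a23 and Slc25a41 lie 2056 bases apart on chromosome 17 and differed 6146-fold in FPKM, with Slc25a41 at 0.0204 FPKM. Slc25a5 and Slc25a43 lie 18289 bases apart on chromosome X and differed 393-fold. Ucp2 and Ucp3, 6904 bases apart on chromosome 7, differed 24.5-fold, and Slc25a24 and Slc25a54, 6566 bases apart on chromosome 3, 20.4-fold. Slc25a29 and Slc25a47, 13956 bases apart on chromosome 12, differed 6.00-fold. These ratios rest on low values of unknown fragment count. With 1 added to each FPKM they were 124-fold for Slc25a23 and Slc25a41, 74.95-fold for Slc25a5 and Slc25a43, 11.8-fold for Ucp2 and Ucp3, and 3.40-fold for Slc25a29 and Slc25a47. Slc25a24 and Slc25a54, both under the floor, were 1.49-fold apart on that scale, which is within the 2-fold limit.

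The promoters of these neighbours are shown because the study's subject is methylated DNA and CpG pairs are a main site of methylation in mouse DNA. Other sites that can be methylated were not counted. Windows run from 250 bases before to 50 after a transcript start, and both genes of 4 neighbour pairs had 1. In each of the 4 pairs the gene listed higher had more CpG pairs in its window, but for Slc25a24 and Slc25a54 that order rests on 2 values under the floor. How often this holds for other pairs of genes was not computed, so no link between CpG pairs and level can be drawn from it. Ucp2 had 21 and Ucp3 had 5, Slc25a5 had 18 and Slc25a43 had 11, Slc25a29 had 32 and Slc25a47 had 7, and Slc25a24 had 19 and Slc25a54 had 15. Of all 32851 windows in the table, 24.8% hold at least as many CpG pairs as Ucp2 and 62% at least as many as Ucp3. The corresponding shares were 29.7% for Slc25a5 and 41.4% for Slc25a43, 9.52% for Slc25a29 and 52.1% for Slc25a47, and 28.1% for Slc25a24 and 34.6% for Slc25a54. The window of Slc25a47 is at a start 1296 bases inside the annotated gene. Promoter windows were found for 43 of the 58 genes (74.1%), under the 80% set as a minimum, so CpG content over the whole set was not summarised. Methylation at these windows was not analysed here. Below are the windows of Ucp2 (chr7:100493108-100493407), Ucp3 (chr7:100472741-100473040), Slc25a5 (chrX:36795347-36795646) and Slc25a43 (chrX:36743382-36743681), all on the plus strand of GRCm38.p6 and written 5′ to 3′, with each CpG pair in capitals:
Ucp2: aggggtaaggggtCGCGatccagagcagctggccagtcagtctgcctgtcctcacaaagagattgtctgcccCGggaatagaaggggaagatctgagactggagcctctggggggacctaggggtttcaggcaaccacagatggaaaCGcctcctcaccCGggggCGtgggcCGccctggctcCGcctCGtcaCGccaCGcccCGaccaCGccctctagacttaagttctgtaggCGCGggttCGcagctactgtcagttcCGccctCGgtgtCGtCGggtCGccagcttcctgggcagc
Ucp3: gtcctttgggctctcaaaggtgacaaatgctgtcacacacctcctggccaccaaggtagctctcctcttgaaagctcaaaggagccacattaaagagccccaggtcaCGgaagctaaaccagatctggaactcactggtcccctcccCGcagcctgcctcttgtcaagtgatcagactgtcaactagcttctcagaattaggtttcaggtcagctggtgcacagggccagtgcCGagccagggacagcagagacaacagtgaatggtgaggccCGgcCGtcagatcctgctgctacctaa
Slc25a5: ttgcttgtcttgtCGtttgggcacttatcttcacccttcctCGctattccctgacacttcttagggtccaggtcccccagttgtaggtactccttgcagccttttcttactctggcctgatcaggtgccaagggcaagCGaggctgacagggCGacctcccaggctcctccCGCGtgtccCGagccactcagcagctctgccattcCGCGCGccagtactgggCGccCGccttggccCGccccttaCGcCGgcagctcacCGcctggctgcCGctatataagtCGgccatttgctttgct
Slc25a43: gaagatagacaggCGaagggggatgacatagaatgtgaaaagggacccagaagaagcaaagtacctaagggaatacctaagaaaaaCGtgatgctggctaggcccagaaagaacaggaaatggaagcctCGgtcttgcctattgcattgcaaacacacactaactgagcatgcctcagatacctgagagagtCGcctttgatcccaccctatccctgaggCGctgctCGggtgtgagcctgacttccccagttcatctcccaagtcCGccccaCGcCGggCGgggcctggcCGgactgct
Of the 21 CpG pairs of Ucp2, 4 lie within bases 1 to 150 of the window, counted from its 5′ end, and 17 lie further on. For Slc25a5 the numbers are 3 and 15. Slc25a24 had 19 CpG pairs and was under the floor at 0.523 FPKM. Whether CpG pairs go with detection was not tested.

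Annotation limits some of these values. In RefSeq, 19 of the 58 genes overlap another annotated gene, and 8 overlap a protein-coding one. Besides those named above, Slc25a11 shares 302 bases with Rnf167, which was at 37.3 FPKM, and Slc25a25 shares 1014 bases with Naif1, which was at 0.832 FPKM. Slc25a35, at 1.96 FPKM, shares 33 bases with Rangrf, which was at 9.94 FPKM. Shorter or similar overlaps are those of Vdac2 with Comtd1 (19 bases), Slc25a26 with Lrig1 (131 bases) and Slc25a21 with Pax9 (191 bases). Micu3 shares 55 bases with the microRNA gene Mir7666, listed at 198 FPKM. Marker genes of broad cell types were also read. None of the lists is of genes particular to the mPFC, so they cannot check the region named by the label. All 6 neuronal markers were detected, from Gad2 at 21.2 to Snap25 at 1279 FPKM, as were 6 of 6 astrocyte (14.6 to 184 FPKM), 5 of 5 oligodendrocyte (30.8 to 912 FPKM), 5 of 5 microglia (7.66 to 39.0 FPKM) and 5 of 5 endothelial and mural markers (3.47 to 27.8 FPKM). The 4 choroid plexus markers ran from 4.72 FPKM to 566 FPKM for Ttr, so the library holds RNA of several cell types. How much of any gene's level came from each type was not estimated.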

How the data were processed

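The RNA of 1 mPFC sample was analysed. The labels' protocols give extraction with Tri-reagent, a DNase step and TruSeq library preparation. The submitters' processing notes name TopHat and Cufflinks, with CASAVA 1.8.2 and the build mm10. Tool versions beyond CASAVA, the annotation, strand handling and how replicates were combined are all not given in the sources used here. FPKM values were deposited for 46073 Ensembl genes. The 2 value columns are equal in 46073 rows and were counted as 1 sample, so no test was possible. FPKM depends on the transcript length assumed, and fragment counts were not recovered.

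Symbols came from a table of Ensembl identifiers (45139 genes named, 934 not). Gene classes, coordinates and promoter windows came from RefSeq for GRCm38.p6, the assembly of mm10, matched by symbol. Percentiles give the share of protein-coding genes at or below a value. Ratios are of FPKM. Pairs were called apart at 2-fold on the log2(FPKM + 1) scale. Of the 58 members 2 are not reported here by name and are left out of the plots of single genes, while counts, medians and sums include them. Every other member is named, and of each partner list the highest and lowest gene and those under the floor. Other partner genes named, and the promoters printed, were chosen after their values were seen. The members, lists and pairs were chosen with earlier results of these data known. A planned comparison of protein sequences was not run, and protein sequences were not used here. The counting and pairing steps were tested on simulated data. Scripts ran in Python 3.11.15 with pandas 2.3.3 and numpy 2.4.6, and figures were drawn with matplotlib 3.10.9.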

Additional observations from a re-analysis of the deposited data

How the results depend on the processing

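The number of detected genes among the 58 was 47 at 1 FPKM, 51 at a floor of 0.5 FPKM and 44 at 2 FPKM. Values rescaled to sum to 1000000 gave 49, and rescaling without mitochondrial genome rows gave 51. The 58.6% of protein-coding genes belongs to the floor of 1 FPKM alone. Shares at the other settings are not given, so these counts show only how far the number moves. The median of 11.1 FPKM was 16.5 FPKM over detected genes alone (9.86 FPKM for detected protein-coding genes and 7.79 FPKM for detected Slc genes outside family 25) and 8.88 FPKM over Slc25 and Ucp genes alone, and the geometric mean was 10.8 FPKM. Of 24 pairs, 17 were apart with a pseudocount of 1, and 18 with 0.1, with none and after rescaling without mitochondrial genome rows. The pair that changed was Vdac1 and Vdac2, at 1.9964-fold with a pseudocount of 1 and 2.0055-fold without. Leaving out replicates and a paired analysis were not run, because the table holds 1 value per gene. Unknown depth limits what can be said of values under 1 FPKM.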
